A study of Xenopus laevis with 3 samples.

Results

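The germ cells and the somatic cells of the juvenile ovary of the frog *Xenopus laevis* were set against each other across all measured genes, to ask which genes and which copies of duplicated genes separate the germline from the tissue around it. Cells were chosen by measured levels of a few marker genes. Germ cells were the cells in which *ddx4.L*, *ddx4.S* and *dazl.L* together reached at least 10 unique molecular identifiers (UMIs, 1 per captured RNA molecule) per 10000 and at least 3 UMIs. Somatic cells were those under 4 per 10000 that held at least 3 UMIs of *col1a1*, *col1a2*, *vim*, *dcn* and the copies of *krt8* and *krt18*. The rule gave 13214 cells of 19253, of which 7237 were germ cells and 5977 were somatic cells. The cells came from 3 individually dissociated ovaries of untreated wild-type animals, each a separate biological replicate, at Nieuwkoop-Faber stages 62 to 66 of metamorphosis. Each ovary gave 1 library of the 10x Genomics Chromium GEM-X 3′ assay, which counts the 3′ ends of transcripts. The labels name the cell type of the libraries as germline cells, but somatic cells made up 61.6, 13.2 and 29.3% of the kept cells of ovaries 1, 2 and 3.

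Germ cells of a young ovary divide as oogonia, enter meiosis inside cysts, pair and recombine their chromosomes and then grow as oocytes within follicles. They silence transposons with Piwi proteins and piRNAs and store RNA in protein particles for later use. The somatic cells build the stroma, the vessels, the surface epithelium and the follicle cells that enclose each oocyte and signal to it. *X. laevis* is an allotetraploid, and many of its genes are held as a pair of homeologs, named .L and .S after the longer and the shorter copy of each chromosome.

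Germ cells numbered 806, 4146 and 2285 and somatic cells 3459, 707 and 1811 in ovaries 1, 2 and 3, and all lists of values below follow this order of ovaries. The UMIs of each class were summed within each ovary, which gave 4930569, 37730188 and 17018123 UMIs for germ cells and 14305346, 2861858 and 4824484 UMIs for somatic cells. The class with fewer cells thus changed from ovary to ovary. The median germ cell held 4246.5, 6180.5 and 2880 UMIs, and the median somatic cell 2826, 2825 and 1654 UMIs. Each sum mixes every stage or cell type of its class, so a change of level within cells and a change in the make-up of the class cannot be told apart. The libraries shared 12 (ovaries 1 and 2), 6 (1 and 3) and 16 (2 and 3) cell barcodes.

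Another 3933 cells passed the quality limits and fell in neither class. Of these, 1680 lay between 4 and 10 per 10000, 759 reached 10 with under 3 UMIs of the germ genes, and 1494 lay under 4 but held under 3 somatic UMIs. Just inside the germ limit, 140 cells had 10 to 12 per 10000 with a median of 12327 UMIs, and 67.1% of them held at least 3 UMIs of the somatic genes. Just outside it, 78.6% of 154 cells with 8 to 10 per 10000 and at least 3 UMIs of the germ genes did. Their median was 8713 UMIs. Asking for 3 germ UMIs keeps the deeper cells at these levels, which favors such shares. At the somatic limit, 233 cells held exactly 3 somatic UMIs, and 335 cells with 2 were left out. Among all germ cells 21.3, 18.6 and 22.3% held at least 3 somatic UMIs, and among somatic cells 19.0, 30.1 and 14.5% held at least 1 UMI of *ddx4* or *dazl*. With the germ cells that held 3 or more somatic UMIs left out, 11146 genes were called in the comparison below, against 10873 with them.

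The 19 features of the rule are given as a description only, since they chose the cells. *ddx4.L*, which encodes the germline RNA helicase Vasa, took 28.7, 29.6 and 20.9 of 10000 UMIs in germ cells, against 0.542, 0.996 and 0.713 in somatic cells. *dazl.L*, an RNA-binding regulator of germ cell translation, took 8.70, 4.85 and 4.19 in germ cells, against 0.0650, 0.154 and 0.0953 in somatic cells. On the somatic side *col1a1.L*, a chain of type I collagen, took 0.389, 0.187 and 0.441 in germ cells, against 11.1, 24.8 and 26.4 in somatic cells. *krt18.1.L*, a keratin copy, took 2.97, 1.01 and 0.828 in germ cells, against 19.1, 50.8 and 25.4 in somatic cells.

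RNAs of the piRNA pathway and of meiosis were higher in germ cells, with all 20 tested genes of the pathway and 23 of 25 tested genes of meiosis called higher. RNAs of the extracellular matrix, the follicle lineage, the vessels and the response to dissociation were lower, as were 136 of 138 ribosomal protein genes. Of 9 egg coat genes, which mark growing oocytes, 0 were called, and 5 were higher when the ovary was added to the fit as a replicate block. The median log2 fold change of these genes was 0.74, but -0.86 with no upper limit on genes per cell.

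All genes outside the rule were compared with the quasi-likelihood test of edgeR, 3 germ sums against 3 somatic sums, on 22469 genes that passed its filter on low counts. Levels are CPM (counts per 1000000 UMIs) scaled by the trimmed mean of M-values (TMM), fold changes are log2 of germ over somatic with their standard error, and a gene was called at a Benjamini-Hochberg adjusted p under 0.05. In this comparison 4803 genes were higher in germ cells (21.4% of those tested) and 6070 were lower (27.0%), so 10873 genes (48.4%) were called. Of these, 1952 (8.69%) were at least 4-fold higher and 3911 (17.4%) at least 4-fold lower. The 3 germ values lay above all 3 somatic values in 28.5% of genes and below them in 30.9%. Over the genes tested, the log2 fold change had a median of 0.07. Without ovary 2, which held the most germ cells, 7102 genes were called, 2324 of them higher and 4778 lower. TMM factors differed between the classes, at 1.59, 1.29 and 1.15 in germ sums against 0.697, 0.787 and 0.778 in somatic sums. With totals alone as the scale the median moved to 0.90, and 71.4% of calls were higher in germ cells, against 44.2% with TMM. Fold changes below are therefore relative to the TMM scale.

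**Figure D1:**
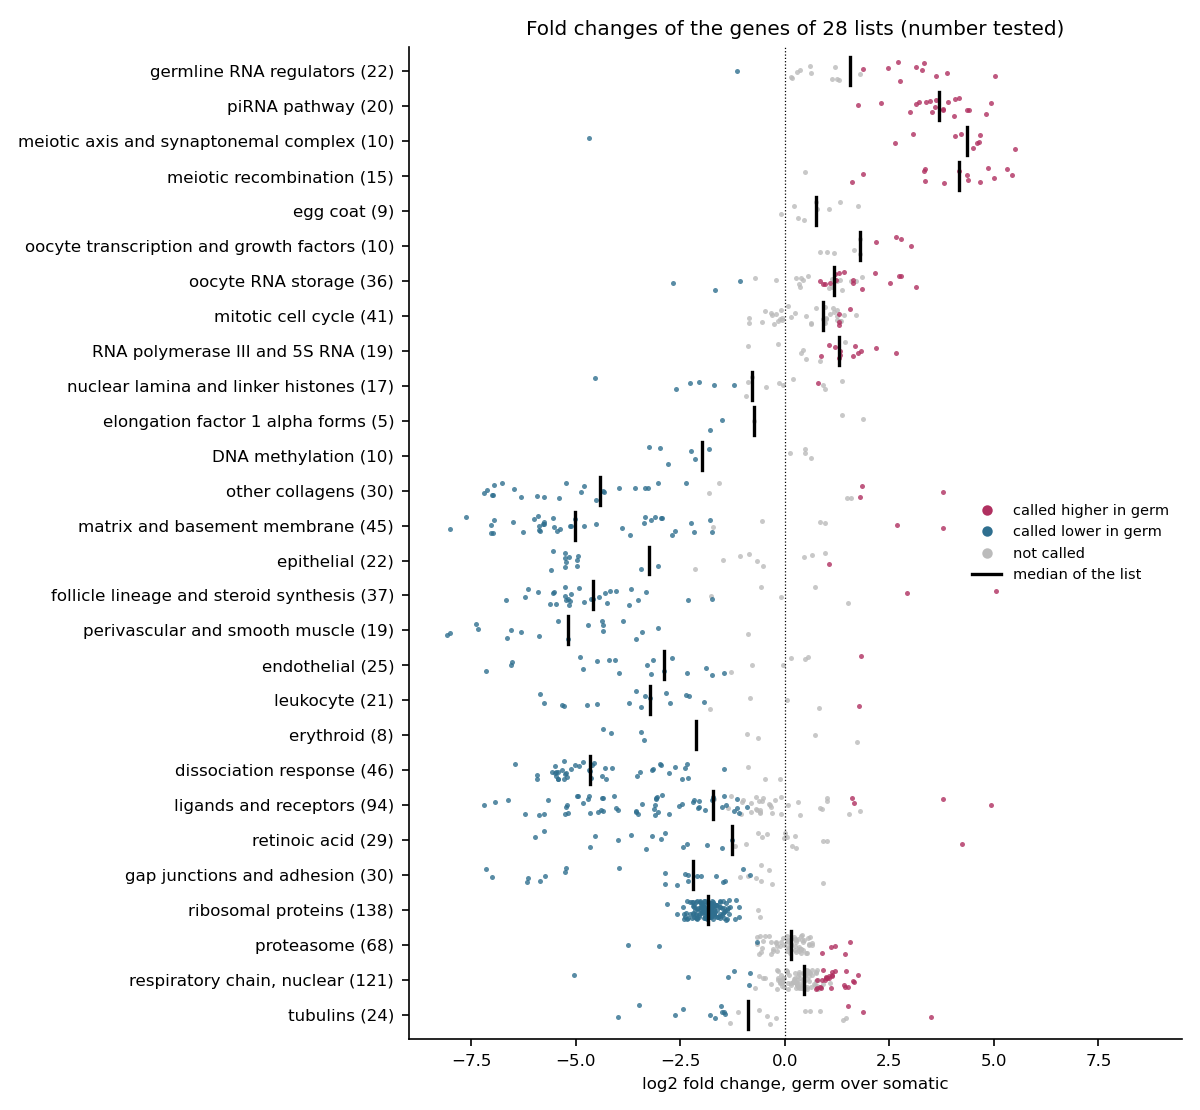
Log2 fold change (germ over somatic, x axis) of each tested gene of 28 lists (rows, number tested in brackets). Colours mark the call at an adjusted p under 0.05 and black bars the list median. The 20 piRNA pathway genes lie right of 0, all but 1 of the 10 meiotic axis genes do, and 136 of 138 ribosomal protein genes are called to the left.

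Among the 28 lists, those of meiosis and the piRNA pathway had the highest medians. Counts of calls in each list stand beside 21.4% higher and 27.0% lower over all genes tested. All 20 tested genes of the piRNA pathway were higher in germ cells, 19 of them at least 4-fold, with a median log2 fold change of 3.69. *piwil1.S*, a Piwi protein that carries piRNAs, had 447, 805 and 567 CPM in germ cells, against 10.8, 38.3 and 40.9 CPM in somatic cells (log2 fold change 4.36 ± 0.54, adjusted p = 0.00035). *piwil2.L*, its partner in the amplification of piRNAs, had 92.5, 92.9 and 69.0 CPM in germ cells, against 2.52, 4.01 and 5.87 CPM in somatic cells (log2 fold change 4.41 ± 0.39, adjusted p = 0.00010). For both Piwi genes the lowest germ value was more than 10 times the highest somatic one. *morc1.S*, a chromatin ATPase that represses transposons in the mouse germline, showed the largest change of the list, with 86.3, 67.1 and 57.5 CPM in germ cells, against 1.41, 3.12 and 2.94 CPM in somatic cells (log2 fold change 4.94 ± 0.40, adjusted p = 8.0e-05). *gtsf1.L*, a zinc finger partner of Piwi proteins, had 686, 710.4 and 594 CPM in germ cells, against 44.2, 66.9 and 115 CPM in somatic cells (log2 fold change 3.14 ± 0.39, adjusted p = 0.00033).

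Tudor domain genes of this pathway, whose products bind methylated Piwi proteins, rose as well. *tdrd9.L* had 246, 282 and 213 CPM in germ cells, against 5.94, 21.8 and 18.4 CPM in somatic cells (log2 fold change 4.04 ± 0.49, adjusted p = 0.00031), and *tdrd1.L*, *tdrd5.L*, *tdrd12.L*, *tdrd15.L* and *tdrd15.S* had log2 fold changes of 3.58, 3.48, 3.37, 3.77 and 4.81. The genes for the mitochondrial surface proteins *asz1.L* and *pld6.S*, which hold the site of piRNA processing, rose by 4.16 ± 0.52 and 2.99 ± 0.43. *henmt1.L*, the methyltransferase that protects the 3′ end of piRNAs, rose by 3.90 ± 0.46. The smallest change of the list was that of *tdrkh.L*, a scaffold for piRNA trimming, with 61.6, 60.0 and 79.1 CPM in germ cells, against 19.4, 12.03 and 27.8 CPM in somatic cells (log2 fold change 1.75 ± 0.34, adjusted p = 0.0029). *piwil4.S* varied between ovaries, with 26.9, 4.23 and 4.996 CPM in germ cells, against 1.01, 0.891 and 0 CPM in somatic cells (log2 fold change 4.07 ± 1.00, adjusted p = 0.0094), and ovary 1 stood above the others in its germ sum. Without replicate 2, 19 of the 20 genes were called. With no upper limit on genes per cell, 18 were called. There the calls of *tdrd12.L* (log2 fold change 1.26, adjusted p = 0.20) and *tdrkh.L* (log2 fold change 1.02, adjusted p = 0.15) were lost.

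Among 10 tested genes of the meiotic chromosome axis and the synaptonemal complex, 9 were higher in germ cells and 1 was lower, with a median of 4.35. *hormad1.S*, an axis protein, had 138, 109 and 86.7 CPM in germ cells, against 1.71, 3.57 and 2.67 CPM in somatic cells (log2 fold change 5.49 ± 0.39, adjusted p = 7.2e-05). *smc1b.L*, a cohesin subunit of meiosis, had 325, 468 and 255 CPM in germ cells, against 4.93, 26.3 and 12.3 CPM in somatic cells (log2 fold change 4.65 ± 0.61, adjusted p = 0.00043). *sycp1.L*, the transverse filament of the complex, had 73.6, 111 and 81.7 CPM in germ cells, against 1.11, 7.13 and 3.74 CPM in somatic cells (log2 fold change 4.67 ± 0.59, adjusted p = 0.00039). Somatic values of these genes were highest in ovary 2, in which 77.5% of kept cells were germ cells. *sycp3.L* of the lateral element and *syce2.L* of the central element rose by 4.60 ± 0.43 and 4.07 ± 0.57, and the cohesins *rec8.L* and *stag3.L* by 2.64 ± 0.48 and 3.06 ± 0.44. *terb1.L*, which ties telomeres to the nuclear envelope, rose by 4.50 ± 0.87.

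The exception of the axis list was a homeolog. *tex12.L*, a central element protein, had 27.7, 41.8 and 19.0 CPM in germ cells, against 0.503, 3.57 and 1.87 CPM in somatic cells (log2 fold change 4.20 ± 0.64, adjusted p = 0.00087). *tex12.S* had 0.129, 0.144 and 0.103 CPM in germ cells, against 3.93, 4.01 and 2.67 CPM in somatic cells (log2 fold change -4.69 ± 0.52, adjusted p = 0.00022), the reverse order at low levels. No germ value of *tex12.S* reached a somatic one.

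Of 15 tested genes of meiotic recombination, 14 were higher and none was lower, with a median of 4.17. *spo11.L*, which makes the DNA breaks, had 20.9, 24.8 and 13.6 CPM in germ cells, against 0, 3.12 and 1.07 CPM in somatic cells (log2 fold change 4.38 ± 0.93, adjusted p = 0.0047). *dmc1.L*, the recombinase of meiosis, had 40.7, 36.0 and 30.8 CPM in germ cells, against 0.604, 1.78 and 0.801 CPM in somatic cells (log2 fold change 5.32 ± 0.43, adjusted p = 8.0e-05). *meiob.L* and *spata22.L*, whose products bind single-stranded DNA together, rose by 5.43 ± 0.62 and 4.999 ± 0.71. The partners *mnd1.L* and *psmc3ip.L*, which assist the recombinase, rose least among those called, by 1.61 ± 0.27 and 1.86 ± 0.32. Of the genes for crossovers, *msh4.L*, *msh5.L*, *hfm1.L*, *tex11.L*, *rnf212b.L* and *rnf212b.S* rose by 3.81, 3.33, 4.17, 4.35, 4.86 and 4.68. *mlh3.L*, a mismatch repair gene, was the one gene not called, with 13.7, 12.9 and 8.03 CPM in germ cells, against 11.4, 6.24 and 6.68 CPM in somatic cells (log2 fold change 0.47 ± 0.37, adjusted p = 0.32).

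**Figure D2:**
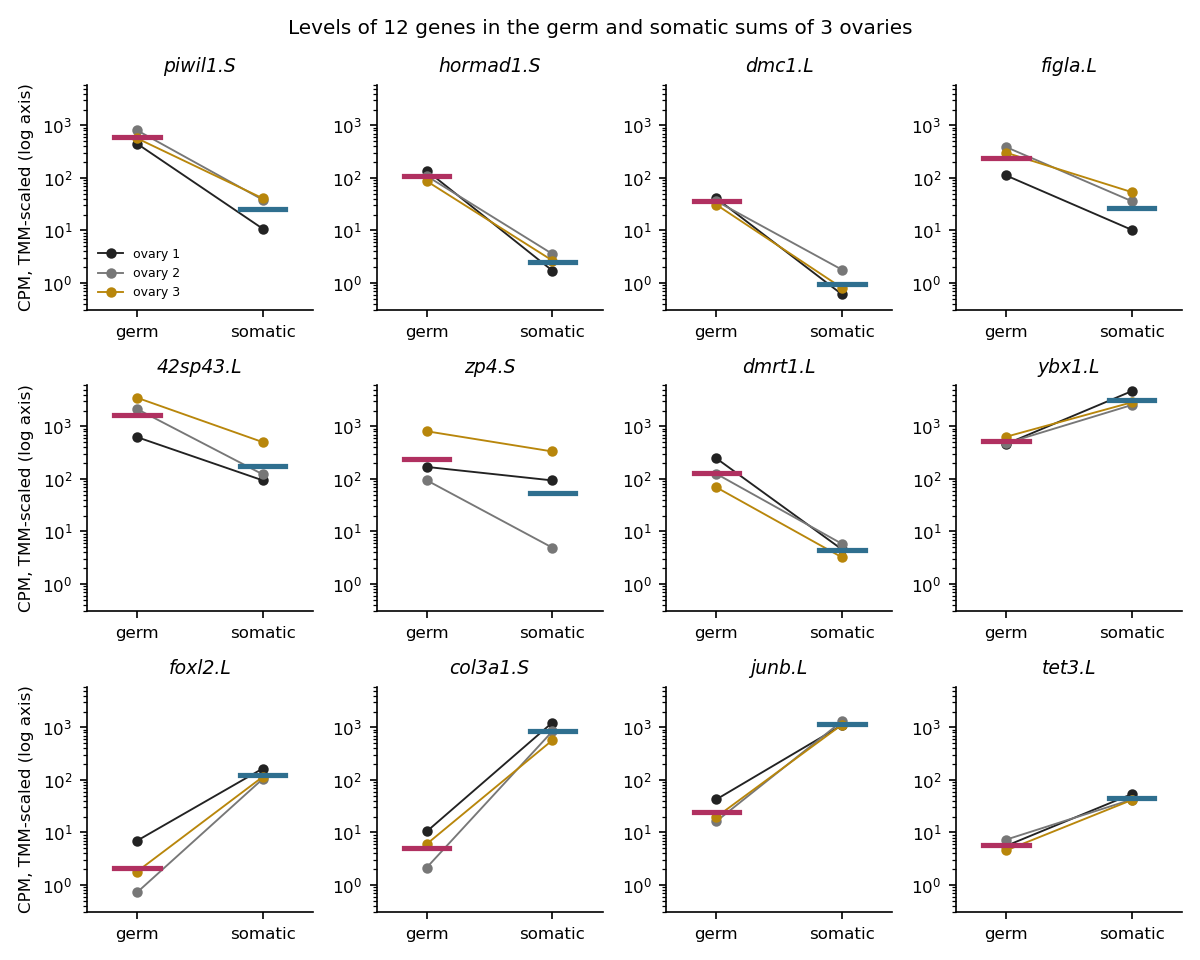
CPM scaled by TMM (log axis) of 12 genes in the germ sum (left) and the somatic sum (right) of each ovary, joined by a line; thick bars are geometric means. The germ points of *piwil1.S*, *hormad1.S*, *dmc1.L* and *dmrt1.L* lie above all somatic points, those of *zp4.S* overlap them, and those of *foxl2.L*, *col3a1.S*, *junb.L* and *tet3.L* lie below.

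Germline RNA regulators were less uniform. Of 22 tested, 10 were higher and 1 was lower, beside 21.4% and 27.0% of all genes tested. The median was 1.55, and with totals alone as the scale 18 were higher and 0 lower. *rbm46.L*, an RNA-binding protein needed for meiosis in mice, had 135, 44.1 and 44.4 CPM in germ cells, against 2.82, 1.78 and 1.87 CPM in somatic cells (log2 fold change 5.02 ± 0.57, adjusted p = 0.00025). *dnd1.L*, which shields germ cell RNAs from microRNAs, had 53.2, 19.8 and 16.6 CPM in germ cells, against 1.91, 0.891 and 2.94 CPM in somatic cells (log2 fold change 3.89 ± 0.59, adjusted p = 0.00086). *elavl2.L*, an RNA-stabilizing protein, had 173, 430.0 and 364 CPM in germ cells, against 20.6, 30.3 and 59.0 CPM in somatic cells (log2 fold change 3.14 ± 0.50, adjusted p = 0.0011). *ddx25.L*, *tdrd6.L*, *tdrd7.L* and *cpeb1.S* rose by 3.29, 2.75, 2.70 and 2.46. *pum2.L*, which represses translation in many tissues, fell by 1.16 ± 0.29 on the log2 scale. *nanos3.S*, a germ cell translation repressor in other vertebrates, was too low for the filter and had 3 UMIs in germ cells and 52 in somatic cells, a ratio of shares of 0.0213 (95% exact counting interval 0.00425 to 0.0657). Calls lost without 1 ovary or with totals alone as the scale were those of *pum2.L* (adjusted p = 0.41 with totals alone, adjusted p = 0.072 without ovary 2, adjusted p = 0.16 without ovary 3).

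One gene that the lists held under the follicle lineage belonged to the germ side. *dmrt1.L*, a sex-determination factor that is also known in germ cells, had 245, 125 and 68.9 CPM in germ cells, against 4.53, 5.79 and 3.204 CPM in somatic cells (log2 fold change 5.04 ± 0.54, adjusted p = 0.00020), and every germ value was more than 10 times every somatic one. Its homeolog *dmrt1.S* had 38 UMIs in germ cells and 0 in somatic cells, a share at least 4.67-fold higher against a floor of 3 counts over the somatic class.

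The oocyte genes fell into a called and an uncalled part. Among 10 tested oocyte transcription and growth factors, 4 were higher and none was lower, beside 21.4% and 27.0% of all genes tested. *figla.L*, a transcription factor of early oocytes, had 111, 387 and 302 CPM in germ cells, against 10.3, 36.1 and 53.7 CPM in somatic cells (log2 fold change 3.01 ± 0.65, adjusted p = 0.0051). *lhx8.L*, its partner in follicle formation, had 55.8, 122 and 117 CPM in germ cells, against 6.04, 12.5 and 25.4 CPM in somatic cells (log2 fold change 2.77 ± 0.54, adjusted p = 0.0031). The secreted growth factors did not pass the test: *bmp15.L* had 8.63, 17.7 and 40.7 CPM in germ cells, against 3.32, 1.34 and 14.4 CPM in somatic cells (adjusted p = 0.086), and *gdf9.L* had 2.71, 4.15 and 10.1 CPM in germ cells, against 1.41, 0 and 6.94 CPM in somatic cells (adjusted p = 0.38). *vegt.L*, a localized RNA of the oocyte, had 66.5, 109 and 279 CPM in germ cells, against 16.5, 10.3 and 104 CPM in somatic cells (adjusted p = 0.11). Calls in this list numbered 2 without replicate 2 and 8 with the ovary as a replicate block. The replicate block gave a call for *bmp15.L* (log2 fold change 1.86, adjusted p = 0.0019) and *vegt.L* (log2 fold change 2.19, adjusted p = 0.00050).

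None of 9 tested egg coat genes was called in either direction by edgeR, 0 had an unadjusted p under 0.05, and DESeq2 called 0. Their median log2 fold change was 0.74, but its sign turned on the setting. It was -0.86 with no upper limit on genes per cell, -0.39 with the germ limit at 20 and -0.03 with cells thinned to 1000 UMIs. Under the other alternatives it was positive, from 0.14 without germ cells of 3 or more somatic UMIs to 1.46 with totals alone as the scale. Lifting the upper limit on genes added cells to both classes. Germ cells went from 806, 4146 and 2285 to 865, 4197 and 2319. Somatic cells went from 3459, 707 and 1811 to 3478, 707 and 1814. The part of the added somatic cells in the change of sign was not tested. These zona pellucida proteins form the coat of the growing oocyte. *zp3.S* had 89.4, 13.4 and 431 CPM in germ cells, against 68.6, 3.57 and 239.5 CPM in somatic cells (log2 fold change 0.77 ± 1.28, adjusted p = 0.65). *zp4.S* had 169, 94.0 and 807 CPM in germ cells, against 93.5, 4.90 and 333 CPM in somatic cells (log2 fold change 1.31 ± 1.16, adjusted p = 0.38), and *zpd.L* had 56.2, 85.8 and 329.5 CPM in germ cells, against 27.2, 5.79 and 108 CPM in somatic cells (log2 fold change 1.74 ± 0.94, adjusted p = 0.16). The germ and somatic values overlapped, and ovary 3 was the highest in both classes. Within each ovary, the germ value of these 3 genes was above the somatic one. With the ovary as block, the test was passed by *zp3.S* (log2 fold change 0.89, adjusted p = 0.028), *zp4.S* (log2 fold change 1.83, adjusted p = 0.011) and *zpd.L* (log2 fold change 1.97, adjusted p = 0.0033).

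As a share of all UMIs, the egg coat list summed to 6.69, 2.99 and 22.1 per 10000 in germ cells, against 1.84, 0.140 and 6.86 in somatic cells. It reached 60.7, 27.8 and 50.3 in the 225, 54 and 58 cells with over 8000 genes, which the rule leaves out, and 24.3, 5.14 and 24.9 in the cells of neither class. The somatic level was 27.6, 4.68 and 31.0% of the germ level of the same ovary. For the piRNA pathway it was 2.395, 4.59 and 9.92%, and for the meiotic axis 1.27, 4.83 and 4.22%. Egg coat RNA in somatic cells thus lay nearer the germ level than RNA of the piRNA pathway and the meiotic axis did in ovaries 1 and 3, while in ovary 2 the 3 shares were close. The cells of neither class lay above the germ cells in every ovary, so the germ class does not hold all cells rich in egg coat RNA. The parts of free RNA and of the rule for the classes in these values were not tested. With the ovary as a replicate block, 5 of the 9 egg coat genes were higher in germ cells.

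**Figure D3:**
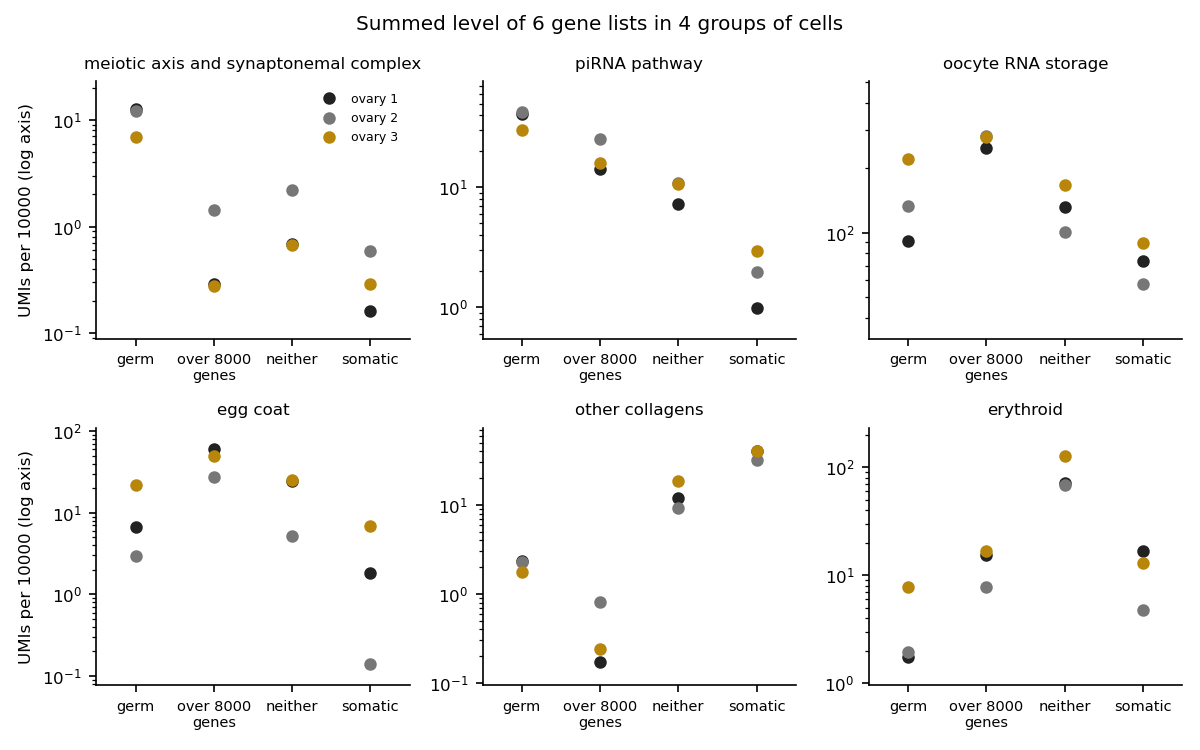
UMIs per 10000 (log axis) of 6 gene lists in germ cells, in cells over 8000 genes, in kept cells of neither class and in somatic cells, 1 point per ovary. Meiotic axis RNA is highest in germ cells (6.88 to 12.7), egg coat RNA in the cells over 8000 genes (27.8 to 60.7), collagen RNA in somatic cells (32.2 to 40.7) and erythroid RNA in the cells of neither class (68.9 to 129).

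Genes for RNA storage in the oocyte also varied between ovaries. Of 36 tested, 16 were higher and 3 lower, beside 21.4% and 27.0% of all genes tested, with a median of 1.16. *42sp43.L* and *42sp50.L* encode the proteins of the 42S particle, which holds 5S RNA and transfer RNA in young oocytes. *42sp43.L* had 624, 2136 and 3507 CPM in germ cells, against 93.8, 122 and 501 CPM in somatic cells (log2 fold change 3.13 ± 0.79, adjusted p = 0.011), and *42sp50.L* had 563, 2033 and 4593 CPM in germ cells, against 113, 132 and 808 CPM in somatic cells (log2 fold change 2.77 ± 0.92, adjusted p = 0.034). *gtf3a.L*, the 5S gene activator that also binds 5S RNA, had 348, 663 and 993 CPM in germ cells, against 76.0, 60.6 and 215 CPM in somatic cells (log2 fold change 2.51 ± 0.56, adjusted p = 0.0061). In all 3 genes the germ level was lowest in ovary 1 and highest in ovary 3. Without replicate 2, 2 genes of this list were called higher and 1 lower, and without replicate 1, 10 higher and 3 lower. The replicate block gave 25 higher and 4 lower. When an ovary was left out or totals alone set the scale, calls were lost for *42sp43.L* (adjusted p = 0.073 without ovary 2) and *42sp50.L* (adjusted p = 0.051 without ovary 1, adjusted p = 0.14 without ovary 2).

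The Y-box proteins, which coat stored messenger RNA, split by gene. *ybx2.S*, the oocyte form, had 293, 767 and 1006 CPM in germ cells, against 69.6, 98.0 and 295 CPM in somatic cells (log2 fold change 2.16 ± 0.62, adjusted p = 0.019). *ybx1.L*, the widely expressed form, had 461, 477 and 634 CPM in germ cells, against 4681, 2548 and 2866 CPM in somatic cells (log2 fold change -2.68 ± 0.33, adjusted p = 0.00031). Poly(A)-binding proteins split the same way: *pabpc1l.S*, the embryonic form, had 25.1, 24.5 and 31.0 CPM in germ cells, against 3.22, 1.78 and 6.94 CPM in somatic cells (log2 fold change 2.73 ± 0.44, adjusted p = 0.0011), while *pabpc1.S* had 676, 869.9 and 753 CPM in germ cells, against 1612, 1617 and 1577 CPM in somatic cells (log2 fold change -1.06 ± 0.24, adjusted p = 0.0061). *btg4.L* and *npm2.L*, both high in ovary 3, were not called (adjusted p = 0.20 and adjusted p = 0.42). Calls gained under the replicate block were those of *btg4.L* (log2 fold change 2.08, adjusted p = 0.0099) and *npm2.L* (log2 fold change 1.74, adjusted p = 0.0076). Another scale or 1 ovary less ended the call of *ybx2.S* (adjusted p = 0.13 without ovary 2) and *pabpc1.S* (adjusted p = 0.32 with totals alone, adjusted p = 0.075 without ovary 2, adjusted p = 0.076 without ovary 3).

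Forms of elongation factor 1 alpha summed to 38.4, 33.7 and 69.2 per 10000 UMIs in germ cells, against 52.8, 37.2 and 43.4 in somatic cells. *eef1a1.L* had 1002, 791 and 900.5 CPM in germ cells, against 4329, 2629.9 and 2370.5 CPM in somatic cells (log2 fold change -1.79 ± 0.31, adjusted p = 0.0015), and *eef1a1.S* fell as well (-1.49). The oocyte form *eef1a1o.S* had 659, 863 and 3171 CPM in germ cells, against 195, 60.2 and 1033 CPM in somatic cells and was not called (adjusted p = 0.14). Of the 5 forms tested, 2 were lower and 0 higher, beside 27.0% and 21.4% of all genes tested, with a median of -0.74. A replicate block gave 2 lower and 2 higher, and totals alone as the scale 2 lower, 1 higher and a median of 0.22. Under the replicate block a call was made for *eef1a1o.S* (log2 fold change 2.36, adjusted p = 0.0012).

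Genes of RNA polymerase III and its factors, which transcribe 5S and transfer RNA, were mostly higher in germ cells: 12 of 19 tested rose and none fell, with a median of 1.28. *polr3g.L*, a subunit exchanged in some cell types, had 18.2996, 35.8 and 52.0 CPM in germ cells, against 3.93, 1.34 and 11.2 CPM in somatic cells (log2 fold change 2.66 ± 0.64, adjusted p = 0.0085). *polr3gl.L*, the alternative to it, had 11.9, 4.25 and 4.22 CPM in germ cells, against 14.4, 8.47 and 13.4 CPM in somatic cells (log2 fold change -0.89 ± 0.47, adjusted p = 0.15). *polr3b.S* and *polr3k.S*, subunits of the core, rose by 2.18 ± 0.34 and 1.67 ± 0.34, and the factor gene *gtf3c4.L* by 1.82 ± 0.39. Without replicate 2, 6 of the genes were called. With no upper limit on genes per cell, *polr3g.L* (log2 fold change 1.35, adjusted p = 0.22) and *gtf3c4.L* (log2 fold change 1.14, adjusted p = 0.057) lost their calls. With cells thinned to 1000 UMIs *polr3g.L* did too (adjusted p = 0.057). The replicate block gave a call for *polr3gl.L* (log2 fold change -0.95, adjusted p = 0.030).

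Of 17 lamina and linker histone genes, 1 was higher and 6 were lower, with a median of -0.80. Over all genes tested, 21.4% were higher and 27.0% were lower. Blocking on the ovary gave 4 higher and 7 lower. With totals alone as the scale 3 were higher and 4 lower, and the median was 0.05. *lmna.L*, the A-type lamin of differentiated cells, had 1.03, 0.330 and 0.412 CPM in germ cells, against 8.96, 15.6 and 12.02 CPM in somatic cells (log2 fold change -4.53 ± 0.53, adjusted p = 0.00027). *lmnb3.S*, a lamin of the oocyte, was the one gene that rose (log2 fold change 0.78 ± 0.28, adjusted p = 0.047). The histone variant gene *macroh2a1.L* fell (log2 fold change -2.60 ± 0.32). The oocyte linker histone *h1-8.S* had 312, 94.2 and 1042 CPM in germ cells, against 147, 7.13 and 405 CPM in somatic cells (adjusted p = 0.35). With the ovary as block, the test was passed by *h1-8.S* (log2 fold change 1.87, adjusted p = 0.0047). The calls that such an alternative ended were those of *lmnb3.S* (adjusted p = 0.19 without ovary 1, adjusted p = 0.21 without ovary 2, adjusted p = 0.056 without ovary 3). Among all 20 alternatives, *lmnb3.S* kept its call in 10.

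Of 10 tested genes of DNA methylation, 6 were lower in germ cells and none was higher, beside 27.0% and 21.4% of all genes. The enzymes that oxidize methylated cytosine were among them. *tet3.L* had 5.54, 7.29 and 4.53 CPM in germ cells, against 53.7, 42.3 and 41.4 CPM in somatic cells (log2 fold change -2.98 ± 0.30, adjusted p = 0.00016), and *tet2.L* had 5.67, 4.62 and 2.94 CPM in germ cells, against 37.9, 29.4 and 23.5 CPM in somatic cells (log2 fold change -2.80 ± 0.35, adjusted p = 0.00038). *tet3.S* fell too (-3.26), as did the methyltransferase gene *dnmt3a.L*, which sets new methyl marks (-2.16). The maintenance enzyme *dnmt1.L* had 185, 150.1 and 312 CPM in germ cells, against 118, 90.5 and 256 CPM in somatic cells (adjusted p = 0.40). With totals alone as the scale, 4 genes of this list were higher and 3 lower, and with the replicate block 1 was higher and 6 were lower. Leaving out 1 ovary or scaling by totals ended the call of *dnmt3a.L* (adjusted p = 0.077 with totals alone).

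Calls among genes of cell division turned on the fit. Of 41 tested genes of the mitotic cycle, 4 were higher and none was lower, with a median of 0.91. These are few beside the 21.4% of all genes tested that were higher and the 27.0% that were lower. The 4 were *aurkb.L*, a mitotic kinase, and the DNA replication helicase genes *mcm2.S*, *mcm4.L* and *mcm4.S*, with rises of 1.57, 1.29, 1.28 and 1.29. *mki67.L*, a protein of dividing cells, had 91.4, 77.6 and 117 CPM in germ cells, against 81.3, 135 and 181 CPM in somatic cells (adjusted p = 0.28). *ccnb1.L*, a mitotic cyclin whose RNA growing oocytes also hold, had 162, 67.6 and 543 CPM in germ cells, against 92.2, 4.01 and 208 CPM in somatic cells (adjusted p = 0.33), and its lowest value by far was that of the somatic cells of ovary 2. With the replicate block 21 genes of the list were higher and 2 were lower, and with totals alone as the scale 19 were higher and 0 lower. Calls gained under the replicate block were those of *ccnb1.L* (log2 fold change 1.78, adjusted p = 0.0090). Calls lost without 1 ovary or with totals alone as the scale were those of *aurkb.L* (adjusted p = 0.15 without ovary 1) and *mcm4.S* (adjusted p = 0.14 without ovary 2).

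On the somatic side, genes of the extracellular matrix were among those with large falls, though the perivascular and smooth muscle list had the lowest median (-5.18). The rule chose somatic cells in part by *col1a1*, *col1a2* and *dcn*, which can favor other matrix genes. Of 30 tested collagens outside the rule, 23 were lower in germ cells and 3 were higher (5 with the replicate block), with a median of -4.44. *col3a1.S*, a chain of type III collagen, had 10.4, 2.15 and 6.03 CPM in germ cells, against 1236, 843 and 570.1 CPM in somatic cells (log2 fold change -7.19 ± 0.68, adjusted p = 0.00012). *col6a3.L* and *col6a1.S* of type VI collagen had log2 fold changes of -7.13 ± 0.67 and -6.98 ± 0.91. In the basement membrane *col4a1.L* had 5.93, 2.74 and 5.20 CPM in germ cells, against 221, 124 and 399 CPM in somatic cells (log2 fold change -5.77 ± 0.55, adjusted p = 0.00013). The 3 genes that rose were low in level. *col9a1.L*, a fibril-associated chain best known from cartilage, had 1.68, 3.92 and 1.70 CPM in germ cells, against 0.302, 0 and 0 CPM in somatic cells (log2 fold change 3.78 ± 0.85, adjusted p = 0.0062). *col11a1.L*, a minor fibril chain, had 4.77, 10.2 and 6.34 CPM in germ cells, against 1.61, 3.12 and 1.602 CPM in somatic cells (log2 fold change 1.85 ± 0.48, adjusted p = 0.011). *col4a5.S*, a basement membrane chain, had 3.61, 7.35 and 5.25 CPM in germ cells, against 2.01, 1.34 and 1.07 CPM in somatic cells (log2 fold change 1.81 ± 0.47, adjusted p = 0.012). When an ovary was left out or totals alone set the scale, calls were lost for *col11a1.L* (adjusted p = 0.060 without ovary 3) and *col4a5.S* (adjusted p = 0.098 without ovary 2, adjusted p = 0.070 without ovary 3).

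Other matrix genes moved with the collagens: 39 of 45 tested were lower, 2 were higher, and the median was -5.02. *sparc.L*, a collagen-binding glycoprotein, had 74.2, 22.1 and 31.6 CPM in germ cells, against 2271, 2419.5 and 2308 CPM in somatic cells (log2 fold change -5.78 ± 0.51, adjusted p = 0.00010). *lum.S*, a proteoglycan of collagen fibrils, had 0.387, 0.454 and 0.670 CPM in germ cells, against 134, 173 and 94.5 CPM in somatic cells (log2 fold change -8.01 ± 0.42, adjusted p = 6.6e-05). The basement membrane genes *nid1.S*, *lama2.L* and *hspg2.L*, the perlecan gene, had log2 fold changes of -5.11, -5.89 and -5.76. The protease gene *mmp2.S* had 3.35, 1.88 and 2.58 CPM in germ cells, against 159, 134 and 149 CPM in somatic cells (log2 fold change -5.86 ± 0.34, adjusted p = 7.0e-05). The 2 exceptions were *tnc.S*, with 2.58, 7.37 and 4.64 CPM in germ cells, against 0.503, 0.446 and 0 CPM in somatic cells (log2 fold change 3.77 ± 0.75, adjusted p = 0.0034), and *lama4.S*, with 3.35, 3.59 and 2.83 CPM in germ cells, against 0.503, 0.446 and 0.534 CPM in somatic cells (log2 fold change 2.68 ± 0.49, adjusted p = 0.0021).

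Of 37 tested genes of the follicle lineage and of steroid synthesis, 30 were lower in germ cells and 2 were higher, with a median of -4.60. *foxl2.L*, a transcription factor of granulosa cells, had 6.96, 0.722 and 1.803 CPM in germ cells, against 165, 104 and 114 CPM in somatic cells (log2 fold change -5.47 ± 0.79, adjusted p = 0.00067). *gata4.S*, a factor of gonadal somatic cells, had 8.38, 1.73 and 2.68 CPM in germ cells, against 204, 183 and 179 CPM in somatic cells (log2 fold change -5.54 ± 0.61, adjusted p = 0.00022). *fshr.L*, the receptor for follicle-stimulating hormone, had 6.44, 2.08 and 1.803 CPM in germ cells, against 120.3, 151 and 100.4 CPM in somatic cells (log2 fold change -5.24 ± 0.55, adjusted p = 0.00018), and *cyp19a1.L*, the aromatase that makes estrogen, had 3.22, 1.28 and 2.11 CPM in germ cells, against 87.5, 129.7 and 96.4 CPM in somatic cells (log2 fold change -5.63 ± 0.43, adjusted p = 7.2e-05). *inha.L*, the inhibin alpha subunit, showed a log2 fold change of -6.15 ± 0.37. Besides *dmrt1.L*, *irx3.L* rose, with 2.84, 16.9 and 19.6 CPM in germ cells, against 1.41, 2.23 and 1.87 CPM in somatic cells (log2 fold change 2.92 ± 0.70, adjusted p = 0.0086). When germ cells with 3 or more somatic UMIs were left out, the median of this list was -7.08, a shift that this choice favors. Another scale or 1 ovary less ended the call of *irx3.L* (adjusted p = 0.050 without ovary 2).

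Markers of the other somatic cell types were mostly lower too. Of 22 epithelial genes 12 were lower and 1, *spint2.L*, was higher. *krt19.S*, a keratin outside the rule, had 44.2, 10.1 and 9.58 CPM in germ cells, against 841, 1069 and 525 CPM in somatic cells (log2 fold change -5.27 ± 0.70, adjusted p = 0.00047). Of 19 perivascular and smooth muscle genes 18 were lower and none was higher, with *acta2.L*, smooth muscle actin, at 0.773, 0.103 and 0.464 CPM in germ cells, against 119, 83.8 and 67.8 CPM in somatic cells (log2 fold change -8.01 ± 0.67, adjusted p = 8.6e-05). Of 25 endothelial genes 18 were lower and 1, *kdr.S*, was higher, with *cdh5.S*, an adhesion protein of vessels, at 0.387, 0.0619 and 0.0515 CPM in germ cells, against 16.9, 17.4 and 14.2 CPM in somatic cells (log2 fold change -7.16 ± 0.63, adjusted p = 0.00010). Of 21 leukocyte genes 16 were lower and 1, *cd3e.L*, was higher, with *ctss.L*, a protease of antigen-presenting cells, at 0.515, 0.454 and 0.309 CPM in germ cells, against 24.4, 33.0 and 12.02 CPM in somatic cells (log2 fold change -5.75 ± 0.50, adjusted p = 0.00010). *kdr.S* had 5.80, 7.70 and 4.69 CPM in germ cells, against 1.71, 2.23 and 1.34 CPM in somatic cells (log2 fold change 1.82 ± 0.42, adjusted p = 0.0073), and *cd3e.L* had 3.74, 10.55 and 4.996 CPM in germ cells, against 3.22, 1.34 and 0.534 CPM in somatic cells (log2 fold change 1.77 ± 0.64, adjusted p = 0.047). Both were low in level. The homeolog *kdr.L* fell (-1.46), and that of *cd3e.L* was too low for the test. The leukocyte list summed to 3.31, 2.39 and 1.44 per 10000 UMIs in somatic cells. It was higher in the cells of neither class, at 6.73, 6.52 and 3.65. Without *vim* in the rule, 5 leukocyte genes were lower, and with each cell thinned to 1000 UMIs, 5 endothelial genes were. The calls that such an alternative ended were those of *spint2.L* (adjusted p = 0.053 without ovary 1, adjusted p = 0.065 without ovary 3), *cd3e.L* (adjusted p = 0.29 without ovary 2, adjusted p = 0.10 without ovary 3) and *kdr.L* (adjusted p = 0.44 with totals alone, adjusted p = 0.10 without ovary 1, adjusted p = 0.13 without ovary 2, adjusted p = 0.13 without ovary 3).

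Of 8 tested erythroid genes 4 were lower and none was higher, beside 27.0% and 21.4% of all genes tested. *hba1.L* of hemoglobin had 7.73, 31.2 and 47.0 CPM in germ cells, against 864, 246 and 445 CPM in somatic cells (log2 fold change -4.17 ± 0.71, adjusted p = 0.0015), but without *vim* in the rule its log2 fold change was 0.26 (adjusted p = 0.74), so this direction rested on the choice of somatic cells. *hba-l5.L* had 87.6, 54.4 and 515 CPM in germ cells, against 56.8, 4.01 and 335 CPM in somatic cells (log2 fold change 0.73 ± 1.22, adjusted p = 0.65), and was highest in ovary 3 in both classes and above the somatic value in the germ cells of each ovary. With the replicate block 2 erythroid genes were higher and 4 lower. The list summed to 1.72, 1.93 and 7.78 per 10000 UMIs in germ cells, against 16.7, 4.76 and 12.9 in somatic cells. It was higher still in the cells of neither class, at 71.9, 68.9 and 129. When the 5% of cells with the highest doublet scores were left out, 2 erythroid genes were lower, and none was called without *vim* in the rule or with cells of at least 500 genes only. *gata1.L* and *gata1.S*, which encode the defining transcription factor of the lineage, were too low for the test. Under the replicate block a call was made for *hba-l5.L* (log2 fold change 1.34, adjusted p = 0.037).

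The 12 largest falls among called genes with a gene name that averaged 100 counts or more in the somatic sums and were lower in 3 of 3 ovaries included muscle, vessel and stroma genes. *des.1.S*, the muscle filament desmin, had 0.129, 0.0413 and 0.0515 CPM in germ cells, against 28.1, 9.80 and 28.04 CPM in somatic cells (log2 fold change -8.46 ± 0.66, adjusted p = 7.3e-05). *aqp1.S*, a water channel, had 0.258, 0.681 and 0.0515 CPM in germ cells, against 158, 90.0 and 73.7 CPM in somatic cells (log2 fold change -8.06 ± 0.73, adjusted p = 0.00011). *rarres2.L*, which encodes the secreted protein chemerin, had 0.258, 0 and 0.155 CPM in germ cells, against 32.4, 19.6 and 16.3 CPM in somatic cells (log2 fold change -8.04 ± 0.85, adjusted p = 0.00019). The other 9 were *acta2.L*, *acta2.S*, *lum.S*, *nnmt.L*, *bgn.S*, *apold1.L*, *fstl1.L*, *adamts4.L* and *tcf21.L*, with log2 fold changes from -8.01 to -7.39. In all 12 the lowest somatic value was more than 10 times the highest germ value, a gap that their choice as the largest falls favors. *tcf21.L*, a transcription factor of stromal progenitors, had 0.644, 0.103 and 0.258 CPM in germ cells, against 76.1, 16.0 and 32.0 CPM in somatic cells, and the somatic sum of ovary 1 was the highest.

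Of the 12 largest rises chosen by the same rule, 8 had 0 or 1 UMI in somatic cells. *ccdc155l.S*, *syngr4.S*, *cck.S* and *arhgap15.S* had 448, 352, 413 and 356 UMIs in germ cells and 0 in somatic cells. Against a floor of 3 counts over the somatic class, their shares were at least 55.0-fold, 43.2-fold, 50.7-fold and 43.7-fold higher. *cck.S*, the gene of the peptide cholecystokinin, had 0.902, 7.62 and 1.91 CPM in germ cells and thus came mostly from ovary 2. *tafa5.S*, *lrriq4.L*, *elfn1.L* and *slc7a9.S* had 1 UMI each in somatic cells. The ratio of pooled shares of *tafa5.S* was 156 (95% exact counting interval 27.8 to 6157), and that of *slc7a9.S*, a subunit of an amino acid transporter, was 125 (22.3 to 4949). *mmel1.L* and *ccdc172.L*, with 3 somatic UMIs each, had ratios of 91.0 (31.0 to 442) and 102 (34.9 to 498). *rims4.L*, of the RIM family best known from synapses, had 5.15, 26.3 and 12.9 CPM in germ cells, against 0.302, 0 and 0.267 CPM in somatic cells (log2 fold change 5.90 ± 0.85, adjusted p = 0.00066). *hormad1.S* completed these 12. Counting intervals cover counting error only. Leaving out 1 ovary or scaling by totals ended the call of *elfn1.L* (adjusted p = 0.056 without ovary 1).

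Stress and growth response genes that tissue dissociation is known to induce were lower in germ cells. Of 46 tested, 43 were lower and none was higher, with a median of -4.65. *junb.L*, an AP-1 transcription factor, had 42.7, 16.3 and 19.7 CPM in germ cells, against 1106, 1316 and 1129.6 CPM in somatic cells (log2 fold change -5.50 ± 0.45, adjusted p = 8.1e-05). *fos.L* had 74.0, 14.5 and 20.1 CPM in germ cells, against 1268, 473 and 367 CPM in somatic cells (log2 fold change -4.29 ± 0.76, adjusted p = 0.0019), and *egr1.S*, another immediate early factor, had 7.86, 2.95 and 4.28 CPM in germ cells, against 216, 248 and 231 CPM in somatic cells (log2 fold change -5.56 ± 0.43, adjusted p = 7.2e-05). *socs3.S*, a feedback inhibitor of cytokine signals, had 37.8, 5.32 and 10.2 CPM in germ cells, against 934, 719.8 and 623 CPM in somatic cells (log2 fold change -5.44 ± 0.74, adjusted p = 0.00051). The 3 genes not called were *ier2.S*, *klf2.L* and the heat shock gene *hspa1l.S*, which had 1021, 1917 and 2628 CPM in germ cells, against 1674, 2053 and 2271 CPM in somatic cells (adjusted p = 0.82). Both classes of an ovary went through the same dissociation, and its part in the difference was not tested. When germ cells with 3 or more somatic UMIs were left out, the median was -5.69, a shift that this choice favors. The replicate block gave a call for *ier2.S* (log2 fold change -1.002, adjusted p = 0.018).

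More signaling genes were lower than higher in germ cells: 57 of 94 tested ligands and receptors were lower in germ cells and 4 were higher, and with totals alone as the scale 44 were lower and 10 higher. Among ligands, *kitlg.S*, the KIT ligand that follicle cells make in mammals, had 2.58, 0.681 and 0.361 CPM in germ cells, against 39.4, 57.5 and 20.3 CPM in somatic cells (log2 fold change -5.23 ± 0.73, adjusted p = 0.00059). Its receptor gene *kit.S* had 16.8, 3.76 and 3.502 CPM in germ cells, against 3.22, 3.57 and 1.34 CPM in somatic cells and was not called (log2 fold change 1.53 ± 0.71, adjusted p = 0.10). *amh.L*, anti-Müllerian hormone, had 2.32, 1.09 and 1.13 CPM in germ cells, against 42.1, 65.1 and 51.0 CPM in somatic cells (log2 fold change -5.20 ± 0.41, adjusted p = 7.3e-05). *cxcl12.L*, a chemokine that guides germ cells, had 2.58, 0.433 and 1.49 CPM in germ cells, against 275, 125 and 99.1 CPM in somatic cells (log2 fold change -6.95 ± 0.75, adjusted p = 0.00020), and its receptor gene *cxcr4.L* had 2.06, 6.83 and 6.28 CPM in germ cells, against 9.56, 12.03 and 10.4 CPM in somatic cells (adjusted p = 0.084). *igf2.L*, a growth factor, and *pdgfb.L*, a ligand for mural cells, had log2 fold changes of -4.66 ± 0.77 and -5.77 ± 0.53. With the ovary as block, the test was passed by *kit.S* (log2 fold change 1.47, adjusted p = 0.023) and *cxcr4.L* (log2 fold change -1.20, adjusted p = 0.015).

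Among receptors, *notch2.L*, *egfr.L* and *pdgfra.S* fell (-5.22, -4.95 and -7.19). The 4 genes of the list that rose were *bmpr1b.L*, *hhip.L*, *hhip.S* and *lgr5.S*. *bmpr1b.L*, a receptor for bone morphogenetic proteins, had 10.1, 17.7 and 13.6 CPM in germ cells, against 2.92, 5.35 and 5.87 CPM in somatic cells (log2 fold change 1.61 ± 0.39, adjusted p = 0.0092), whereas the related *bmpr1a.L* had 14.2, 8.44 and 8.09 CPM in germ cells, against 48.2, 39.7 and 38.7 CPM in somatic cells (log2 fold change -2.06 ± 0.31, adjusted p = 0.00086). *hhip.L*, which binds Hedgehog ligands and limits their signal, had 8.51, 7.35 and 10.0 CPM in germ cells, against 0.705, 0.891 and 0.267 CPM in somatic cells (log2 fold change 3.79 ± 0.48, adjusted p = 0.00038). *lgr5.S*, a receptor for R-spondins, had 402 UMIs in germ cells and 2 in somatic cells, a ratio of shares of 74.1 (20.4 to 614). Its homeolog *lgr5.L* had 72 UMIs in germ cells and 0 in somatic cells, at least 8.84-fold higher in share. Calls lost without 1 ovary or with totals alone as the scale were those of *bmpr1b.L* (adjusted p = 0.059 without ovary 2) and *hhip.S* (adjusted p = 0.055 without ovary 3).

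Retinoic acid, made by aldehyde dehydrogenases and removed by CYP26 enzymes, is a signal for meiotic entry in mice. Of 29 tested genes of this pathway 15 were lower and 1 was higher (16 and 2 with the replicate block, 11 and 3 with totals alone as the scale). The synthetic enzyme *aldh1a2.L* had 26.4, 7.22 and 7.93 CPM in germ cells, against 268, 230.0 and 154 CPM in somatic cells (log2 fold change -3.99 ± 0.56, adjusted p = 0.00061), and *aldh1a1.L* had 16.1, 19.0 and 32.6 CPM in germ cells, against 226, 296 and 152 CPM in somatic cells (log2 fold change -3.31 ± 0.39, adjusted p = 0.00028). Among the degrading enzymes, *cyp26b1.S* had 1.68, 0.103 and 0.155 CPM in germ cells, against 42.5, 12.9 and 14.7 CPM in somatic cells (log2 fold change -5.77 ± 1.02, adjusted p = 0.0019), while *cyp26a1.L* had 29.8, 30.9 and 166 CPM in germ cells, against 24.7, 12.9 and 82.5 CPM in somatic cells and was not called (adjusted p = 0.38). Values of *cyp26a1.L* were highest in ovary 3 in both classes. The gene that rose, *rbp4.S*, a retinol carrier, had 3.48, 21.4 and 1.597 CPM in germ cells, against 0.101, 2.23 and 0 CPM in somatic cells (log2 fold change 4.25 ± 1.41, adjusted p = 0.034) and was highest in ovary 2 in both classes. Of the receptor genes *rara.L* and *rarg.S* fell (-1.87 and -1.51), and *rarb.L* had 17.3, 12.5 and 9.48 CPM in germ cells, against 12.1, 8.47 and 13.6 CPM in somatic cells (adjusted p = 0.69). Calls gained under the replicate block were those of *cyp26a1.L* (log2 fold change 0.82, adjusted p = 0.020). When an ovary was left out or totals alone set the scale, calls were lost for *rbp4.S* (adjusted p = 0.14 without ovary 1), *rara.L* (adjusted p = 0.10 with totals alone) and *rarg.S* (adjusted p = 0.10 with totals alone).

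Of 30 tested gap junction and adhesion genes, 22 were lower and none was higher, and the replicate block gave 25 lower and 1 higher. *gja1.L*, connexin 43, which couples follicle cells, had 7.73, 1.09 and 2.73 CPM in germ cells, against 285, 115 and 229.9 CPM in somatic cells (log2 fold change -5.86 ± 0.76, adjusted p = 0.00041), and *gja4.L*, connexin 37, fell as well (-7.01 ± 0.86). *cdh11.S*, a cadherin of mesenchyme, had 1.03, 0.454 and 1.03 CPM in germ cells, against 69.9, 36.1 and 59.3 CPM in somatic cells (log2 fold change -6.14 ± 0.47, adjusted p = 7.2e-05). *cdh2.L*, N-cadherin, had 14.6, 8.79 and 7.73 CPM in germ cells, against 4.53, 9.36 and 3.204 CPM in somatic cells (adjusted p = 0.13). *cdh3.L*, a cadherin also held by oocytes, had 20.2, 28.5 and 32.0 CPM in germ cells, against 31.3, 29.0 and 39.3 CPM in somatic cells (adjusted p = 0.40). Under the replicate block a call was made for *cdh2.L* (log2 fold change 0.98, adjusted p = 0.049).

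Germ and somatic RNA also differed in breadth. The median germ cell held 2408, 3294 and 1926 genes as sequenced, against 1176, 1358 and 931 genes in the median somatic cell, at unequal depth. When each cell was thinned to 1000 UMIs, which kept 733, 3988 and 2102 germ cells and 3382, 648 and 1635 somatic cells, the median germ cell held 799, 813 and 803 genes, against 570, 632 and 638 genes in somatic cells. The means were 805 ± 7.21 and 613 ± 37.6 genes (SD over the same 3 ovaries). The difference was 192 genes, with no overlap and an unpaired exact permutation p of 0.10 (two-sided), the smallest that 3 against 3 allows. This test took the medians as independent, although both classes came from the same ovaries, so its p leaves out the pairing. At 500 UMIs it was 76.0 genes and at 2000 UMIs 398 genes. The 50 most abundant features took 10.998, 11.2 and 13.9% of germ UMIs, against 23.1, 19.4 and 19.3% of somatic UMIs. Somatic RNA was thus the more concentrated in few genes in every ovary.

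**Figure D4:**
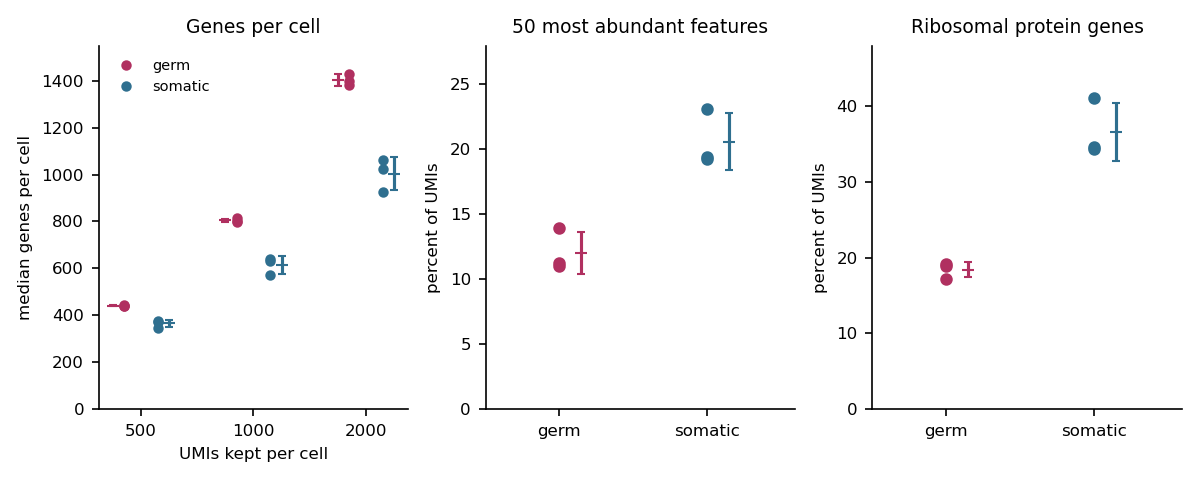
Left, median genes per cell after thinning to 500, 1000 and 2000 UMIs; middle and right, percent of UMIs from the 50 most abundant features and from ribosomal protein genes. Points are ovaries (germ left, somatic right), with the mean ± SD of 3 ovaries beside them; at 1000 UMIs germ cells had 805 genes and somatic cells 613.

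Ribosomal protein genes took a larger share of somatic RNA. They summed to 1893, 1723 and 1910.1 per 10000 UMIs in germ cells, against 4102, 3429 and 3456 in somatic cells. Of 138 tested, 136 were lower in germ cells and none was higher, with a median of -1.83 and -1.02 with totals alone as the scale. *rps9.S* had the largest fall, with 219, 284 and 235 CPM in germ cells, against 2053, 1731 and 1465 CPM in somatic cells (log2 fold change -2.83 ± 0.27, adjusted p = 0.00014). The 2 genes not called were *rps20.S* and *rpl3.S* (adjusted p = 0.11 and adjusted p = 0.16). Of the 10 most abundant features of somatic cells, 9 were ribosomal protein genes and the other was *tpt1.L*, a protein of growing cells, which fell by 2.32 on the log2 scale.

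The 10 most abundant features of germ cells were more varied. Besides ribosomal protein genes and *ddx4.L*, they held *cirbp.L* and *cirbp.S*, the cold-inducible RNA-binding protein, *hsp90ab1.S*, a chaperone, and *42sp50.L*. *hsp90ab1.S* had a log2 fold change of -0.02 on the TMM scale (adjusted p = 0.97) and of 0.78 with totals alone as the scale, so its direction turned on the scaling. *cirbp.L* took 0.224, 0.536 and 0.495% of germ UMIs, against 0.157, 0.283 and 0.258% of somatic UMIs, and was not called on the TMM scale (log2 fold change 0.11 ± 0.42, adjusted p = 0.85). *42sp50.L* took 0.0885, 0.261 and 0.524% of germ UMIs, against 0.00783, 0.0104 and 0.0627% of somatic UMIs.

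Few proteasome genes and, beside the 21.4% of all genes, an ordinary share of respiratory chain genes were higher on the TMM scale. Of 68 proteasome genes 5 were higher and 3 lower, and of 121 nuclear genes of the respiratory chain 25 were higher and 6 lower. Both counts of lower genes were small beside the 27.0% of all genes tested that were lower. With totals alone as the scale, 46 proteasome genes were higher and 2 lower, and 102 respiratory chain genes were higher and 1 lower. With the replicate block, 8 proteasome genes were higher and 7 lower. As shares of all UMIs, the respiratory chain list took 233, 295 and 242 per 10000 in germ cells, against 106, 127 and 136 in somatic cells. Without replicate 2 the respiratory chain list had 3 genes higher and 3 lower, and without replicate 3 it had 10 higher and 4 lower. Genes with alternative forms were among those that fell. *psmb9.S* and *psmb8.L* encode the catalytic subunits that immune cells and interferon-treated cells put in place of the usual ones. *psmb9.S* had 3.09, 5.12 and 3.30 CPM in germ cells, against 67.0, 52.6 and 39.0 CPM in somatic cells (log2 fold change -3.76 ± 0.35, adjusted p = 0.00012), and *psmb8.L* had 11.98, 15.1 and 21.9 CPM in germ cells, against 101, 201 and 92.7 CPM in somatic cells (log2 fold change -3.00 ± 0.40, adjusted p = 0.00047). *cox4i2.L*, the alternative form of a cytochrome oxidase subunit, had 6.83, 1.44 and 3.55 CPM in germ cells, against 158, 91.4 and 123 CPM in somatic cells (log2 fold change -5.04 ± 0.58, adjusted p = 0.00025).

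Among tubulin genes, 10 of 24 tested were lower and 3 were higher, with a median of -0.88. Of all genes tested, 27.0% were lower and 21.4% higher. Blocking on the ovary gave 11 lower and 5 higher. With totals alone as the scale 8 were lower and 7 higher, and the median was 0.01. *tubb.L* had 12.1, 17.1 and 13.8 CPM in germ cells, against 184, 312 and 192 CPM in somatic cells (log2 fold change -3.99 ± 0.34, adjusted p = 8.7e-05), and *tuba1b.L* had 38.7, 27.9 and 26.0 CPM in germ cells, against 276, 409 and 359 CPM in somatic cells (log2 fold change -3.499 ± 0.31, adjusted p = 0.00010). *tubb3.L*, the class III form best known from neurons, had 5.03, 2.97 and 2.11 CPM in germ cells, against 0.101, 0.891 and 0.267 CPM in somatic cells (log2 fold change 3.497 ± 0.79, adjusted p = 0.0063). *tubg1.L*, which nucleates microtubules, and *tuba4b.L* rose as well (1.88 ± 0.60 and 1.52 ± 0.49). The abundant *tubb4b.L* had 649.9, 754 and 1413 CPM in germ cells, against 447, 615 and 970.1 CPM in somatic cells (adjusted p = 0.35). Without replicate 1 no tubulin gene was called higher, and without replicate 2, 1 was. Another scale or 1 ovary less ended the call of *tubb3.L* (adjusted p = 0.055 without ovary 1), *tubg1.L* (adjusted p = 0.072 without ovary 1, adjusted p = 0.11 without ovary 2) and *tuba4b.L* (adjusted p = 0.14 without ovary 1, adjusted p = 0.075 without ovary 2). So did lifting the upper limit on genes per cell for *tubg1.L* (log2 fold change 0.42, adjusted p = 0.64) and *tuba4b.L* (log2 fold change 0.73, adjusted p = 0.29).

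The last comparison asked whether the 2 homeologs of a gene are used in the same proportion by germ and somatic cells. Of 6408 pairs whose copies each averaged 10 or more counts over the 6 sums, 798 (12.5%) were called with edgeR's diffSpliceDGE at an adjusted p under 0.05. The .L share was higher in germ cells in 339 pairs (5.29%) and lower in 459 (7.16%). The direction was the same in 3 of 3 ovaries in 786 of the called pairs. The call was made on the same 6 sums and favors such agreement, so it is no separate support. Over all pairs the median .L share was 52.2% in germ cells and 54.0% in somatic cells. The number of called pairs was 184 without ovary 2, and 208 without ovary 3. How the counting treated reads that match both copies was not tested, so levels and .L shares of near-identical homeologs are uncertain.

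Both copies were called higher in 490 pairs (7.65% of the 6408 tested) and lower in 1265 (19.7%). In a small share, 75 pairs called for usage, the copies were called in opposite directions. In 26 of these (0.406% of pairs tested) .L was higher in germ cells and .S lower, and in 49 (0.765%) it was the reverse. *abcg2*, a membrane transporter, was one of the 26. *abcg2.L* had 42.7, 41.0 and 38.4 CPM in germ cells, against 5.03, 2.23 and 7.21 CPM in somatic cells, and *abcg2.S* had 1.42, 1.03 and 1.34 CPM in germ cells, against 19.3, 15.6 and 11.7 CPM in somatic cells. *ano1*, a chloride channel, showed the same order, with *ano1.L* at 41.8, 30.1 and 34.3 CPM in germ cells, against 4.13, 2.23 and 11.7 CPM in somatic cells and *ano1.S* at 0.515, 0.206 and 0.515 CPM in germ cells, against 8.05, 4.01 and 5.34 CPM in somatic cells. The .L copy of *abcg2* was the higher in germ cells and the lower in somatic cells of every ovary, whereas *ano1.L* stayed above *ano1.S* in somatic cells of ovary 3.

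*cdh12*, a cadherin gene, and *qrfpr*, a peptide receptor gene, also had .L on the germ side. *cdh12.S* had 3.74, 5.14 and 2.21 CPM in germ cells, against 36.2, 24.1 and 30.4 CPM in somatic cells, and *cdh12.L* had 1.55, 7.24 and 4.28 CPM in germ cells, against 0.101, 0 and 0.801 CPM in somatic cells. *qrfpr.S* had 2.84, 3.65 and 5.20 CPM in germ cells, against 16.6, 70.9 and 19.5 CPM in somatic cells, and *qrfpr.L* had 4.25, 7.84 and 12.7 CPM in germ cells, against 0.604, 1.34 and 1.602 CPM in somatic cells. *tex12*, described above, belonged to this kind. Its .L share was 99.6 ± 0.0989% in germ cells and 33.2 ± 19.1% in somatic cells (SD, n = 3 ovaries). The calls that such an alternative ended were those of *cdh12.L* (adjusted p = 0.054 without ovary 2).

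The reverse kind held *rspo2*, a ligand that amplifies Wnt signals, *dapk2*, a kinase, and *nell2*, *fggy* and *arhgap15*. *rspo2.L* had 3.87, 2.29 and 2.21 CPM in germ cells, against 33.4, 75.8 and 39.5 CPM in somatic cells, and *rspo2.S* had 2.84, 1.05 and 1.49 CPM in germ cells, against 0.101, 0 and 0.801 CPM in somatic cells. *dapk2.L* had 0.258, 0.144 and 0.309 CPM in germ cells, against 12.6, 3.12 and 14.7 CPM in somatic cells, and *dapk2.S* had 2.71, 5.16 and 3.502 CPM in germ cells, against 0.302, 0.446 and 0 CPM in somatic cells. *fggy.L* had 2.32, 3.14 and 2.68 CPM in germ cells, against 15.8, 15.2 and 8.55 CPM in somatic cells, and *fggy.S* had 3.48, 2.64 and 2.58 CPM in germ cells, against 0.201, 0 and 0.267 CPM in somatic cells. The .L share of *rspo2* was 61.98 ± 5.75% in germ cells and 99.2 ± 1.07% in somatic cells, that of *dapk2* 6.51 ± 3.29% and 95.1 ± 6.64%, and that of *fggy* 48.4 ± 7.48% and 98.6 ± 1.52% (SD, n = 3 ovaries). The matrix genes *col4a5* and *lama4*, whose .S copies rose while their .L copies fell, were of this kind too. Leaving out 1 ovary or scaling by totals ended the call of *rspo2.S* (adjusted p = 0.28 without ovary 1, adjusted p = 0.079 without ovary 2).

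**Figure D5:**
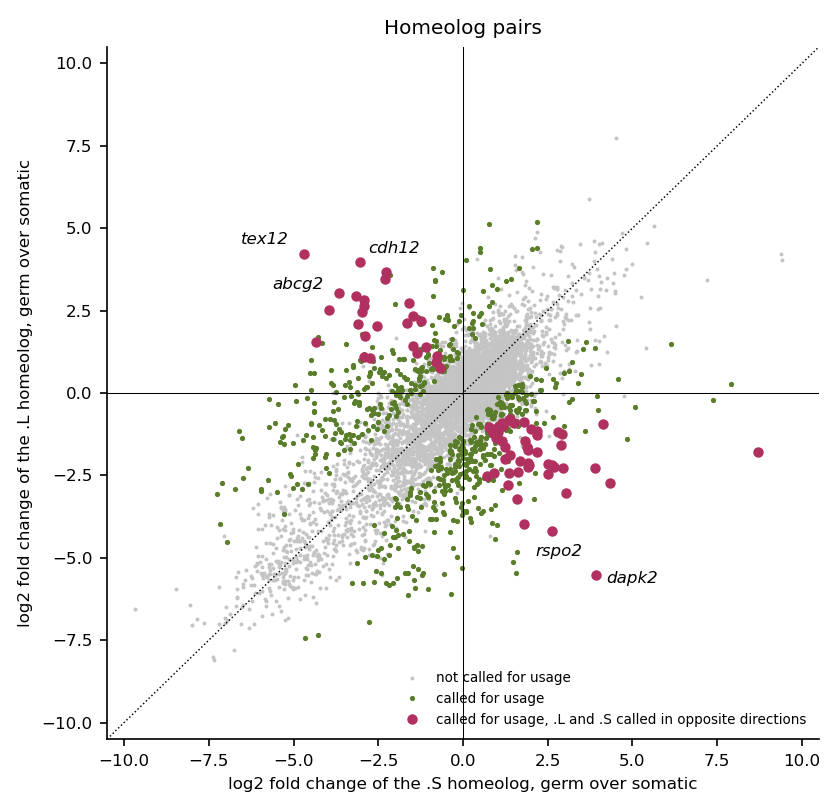
Log2 fold change (germ over somatic) of the .L copy (y axis) against that of the .S copy (x axis) for 6053 homeolog pairs in which both were tested; the dotted line marks equal change. Large points are 75 pairs called for usage whose copies were called in opposite directions, such as *tex12* at upper left and *rspo2* at lower right; points at the edges include copies with 0 counts in a class, whose fitted value is no bound.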

How the data were processed

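The 3 individual ovaries were dissociated, strained and sequenced by the authors as 1 library each. The deposited files hold counts of UMIs per gene and cell, made by the authors with Cell Ranger 8.0.1 (the submitters' processing notes), with no normalization. The gene identifiers carry a prefix of the *X. laevis* gene models of Xenbase. The build that reads were aligned to is not otherwise given in the sources used here, so no coordinates or sequences are printed. The libraries held 5987, 6302 and 6964 barcodes and 54585110, 50307231 and 34060121 UMIs, of which 0.363 to 0.443% lay on 24 features without a gene name; these stayed out of library sizes and tests.

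The cells kept (17147) had between 100 and 8000 genes, and the 13 mitochondrial genes made up 1.5% of their UMIs or less. The files hold no features named krt8.L, krt8.S, krt18.L or krt18.S, so the 8 numbered copies of *krt8* and *krt18* were used, and the rule spans 19 features rather than the planned 15. These features were left out of the homeolog test and of all counts of calls. They stayed in the edgeR fit and in its Benjamini-Hochberg adjustment. Members and gene lists were chosen with earlier results of these data known. Of 1075 features found for 28 lists, 971 passed the filter on low counts; a list's count covers only those, and some genes stand in more than 1 list.

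UMI counts were summed per ovary and class and tested with edgeR 4.0.16 in R 4.3.3 (filterByExpr, TMM, glmQLFit, glmQLFTest; Benjamini-Hochberg adjustment). Homeolog usage was tested with diffSpliceDGE, and genes per cell with an unpaired exact permutation test in scipy 1.17.1. DESeq2 1.42.0 was an alternative. The scripts were tested on simulated data. Germ and somatic sums of the same number come from 1 ovary. Their deviations from the class means correlated at 0.382, 0.363 and 0.510 for ovaries 1, 2 and 3, and the fit with the ovary as replicate block was an alternative. Doublets were not removed. Scrublet (scanpy 1.11.5) called 85 germ and 36 somatic cells, too few to rely on, so the 5% of cells with the highest scores were left out as an alternative.

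Besides members of the lists, the genes named were the 12 largest rises and falls among called genes with a mean of at least 100 counts in the higher class and the same direction in 3 of 3 ovaries, the 10 most abundant features of each class, and the 10 homeolog pairs with the largest opposite changes. *kdr.L*, *dmrt1.S*, *lgr5.L* and *nanos3.S* were singled out after their values were seen. Alternatives to scaling, filters, depth and the rule numbered 20. Some genes of the lists are not reported here.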

Additional observations from a re-analysis of the deposited data

How the results depend on the processing

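The direction and call of 142 of 173 named genes that passed the test held in each of the 20 alternatives that tested the gene. Not every gene was tested in each, and *cck.S* and *arhgap15.S* were tested in 15. The direction of the 10 named homeolog pairs held in each setting that could test them. The call of 23 genes was lost when 1 ovary was left out, and that of 8 others only under another alternative. The log2 fold change of *hba1.L* turned to 0.26 without *vim* in the rule, and that of *hsp90ab1.S* to 0.78 with totals alone as the scale. The cause was not tested. With totals alone as the scale, chosen after seeing the data, 9920 genes were higher and 3982 lower in germ cells, 4497 of them at least 4-fold higher. With each cell thinned to 1000 UMIs, 2368 genes were at least 4-fold lower.

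Leaving out 1 ovary gave 7102 to 9266 called genes, 2324 to 3753 of them higher in germ cells. It gave 184 to 564 homeolog pairs, 80 to 229 with a higher .L share and 104 to 335 with a lower one. Pairs called numbered 494 (203 higher, 291 lower) with the deeper sum of each ovary thinned to the shallower, 454 (196 and 258) with cells thinned to 1000 UMIs, and 472 (192 and 280) at a mean of at least 50 counts. Fewer counts entered the thinned tests, and fewer pairs entered the last one. With the ovary as replicate block, 13218 genes and 1188 pairs were called. The block shared 10852 of the 10873 calls made without it. The difference in genes per cell was 173 to 205 when an ovary was left out, where the smallest unpaired exact permutation p is 0.333. Left without the keratins, also chosen after seeing the data, the rule gave 10344 called genes. Where a list had no gene called in 1 direction, edgeR at an unadjusted p under 0.05 and DESeq2 gave 0 in that direction too, except for the mitotic cell cycle (2 lower at the unadjusted p) and DNA methylation (1 higher by each).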

Other observations

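The 337 cells with over 8000 genes and the 3933 kept cells of neither class stayed out of the main comparison, and their levels are given as values. In the cells over 8000 genes, with medians of 80118, 55415.5 and 76237.5 UMIs in ovaries 1, 2 and 3, the genes of oocyte RNA storage summed to 247, 279 and 277 per 10000 UMIs and those of the mitotic cell cycle to 144, 67.7 and 135. The egg coat genes reached their highest levels there, while genes of the meiotic axis took 0.287, 1.42 and 0.278 per 10000. The cells of neither class held 18.08, 9.33 and 18.7 per 10000 of germline RNA regulators. Ribosomal protein genes took 2539.6, 3036 and 2512 per 10000 UMIs in them.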
